A study of Mus musculus with 2 samples.

Results

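Tumor_9 is 1 of 11 groups of hepatoma cells that the study's authors separated in Hep1-6 tumours, and it was examined here as the cells with an interferon response. Its members are all cells that carry the deposited cluster name Tumor_9. There were 495 of them among 11247 cells, with 248 in the library from antibody-treated mice and 247 in the library from IgG-treated mice. They were set against the other 10 tumour clusters, with 2965 cells in the antibody library and 4117 in the IgG library.

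Hep1-6 is a mouse liver cancer line, here grown as grafts that the labels call percutaneous, in wild type C57BL/6 males of 6 to 8 weeks on a normal diet, kept free of specific pathogens. The tumours of the first group came from mice injected into the abdomen with an antibody to SIGLEC15, a sialic acid-binding receptor of myeloid cells, and those of the second from mice injected with IgG. The design text names 3 mice in each group, but each group is 1 library and cells were not assigned to mice. Cells enriched with CD45 magnetic beads were mixed in equal parts with cells that had not been sorted, so the balance of immune and tumour cells was set in part by the mixing. Transcripts were counted as unique molecular identifiers (UMIs) with a kit that reads the 3' ends.

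Interferons are signalling proteins that cells release on infection or on contact with activated lymphocytes. Interferon gamma, made mainly by T cells and natural killer cells, binds its receptor on many cell types, where Janus kinases pass the signal to transcription factors. Interferon regulatory factors then help to switch on guanylate-binding proteins, immunity-related GTPases, chemokines that attract T cells, and the machinery that presents peptides on MHC molecules. Type I interferons use another receptor, and the genes that both kinds induce overlap. In liver cancer cells MHC class II is usually low and can be induced by interferon gamma through the factor CIITA.

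The antibody library gave 5147847 UMIs from Tumor_9 cells out of 74168827 in all, and the IgG library gave 4802322 out of 85804877. A median Tumor_9 cell of the antibody library held 20880 UMIs and 4180 detected genes, against 20349 UMIs and 3902 genes in the other tumour cells of that library. In the IgG library the median depth was 19766 UMIs in Tumor_9 and 18790 UMIs in the other tumour cells. The 2 libraries shared 11 cell barcodes, of which 1 belonged to an IgG Tumor_9 cell and 0 to an antibody Tumor_9 cell. Expression was described over 18685 genes in the antibody library, and 105 genes could be read in both. With 1 library per group there is no replicate check and no test, and every 95% interval given reflects counting error alone. The clusters were drawn from the same expression values, so their differences are a description of the cluster.

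The 3 genes that mark the cluster were each highest in Tumor_9 among the 11 tumour clusters. Levels are a gene's UMIs summed over the cells of a cluster and scaled to the cluster's total as CPM. Cxcl10, a chemokine that draws T cells through the receptor CXCR3, stood at 472 CPM (453 to 491) in Tumor_9, and the next tumour cluster, Tumor_7, held 126 CPM. Gbp2, a guanylate-binding protein that acts on vacuoles of intracellular microbes, reached 415 CPM in Tumor_9 and 105 CPM in Tumor_11, the next in order. Iigp1, an immunity-related GTPase, reached 536 CPM in Tumor_9 and 377 CPM (348 to 407) in Tumor_11. These genes gave the cluster its label, so their excess is a description, and Iigp1 was the least separated of them.

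**Figure D1:**
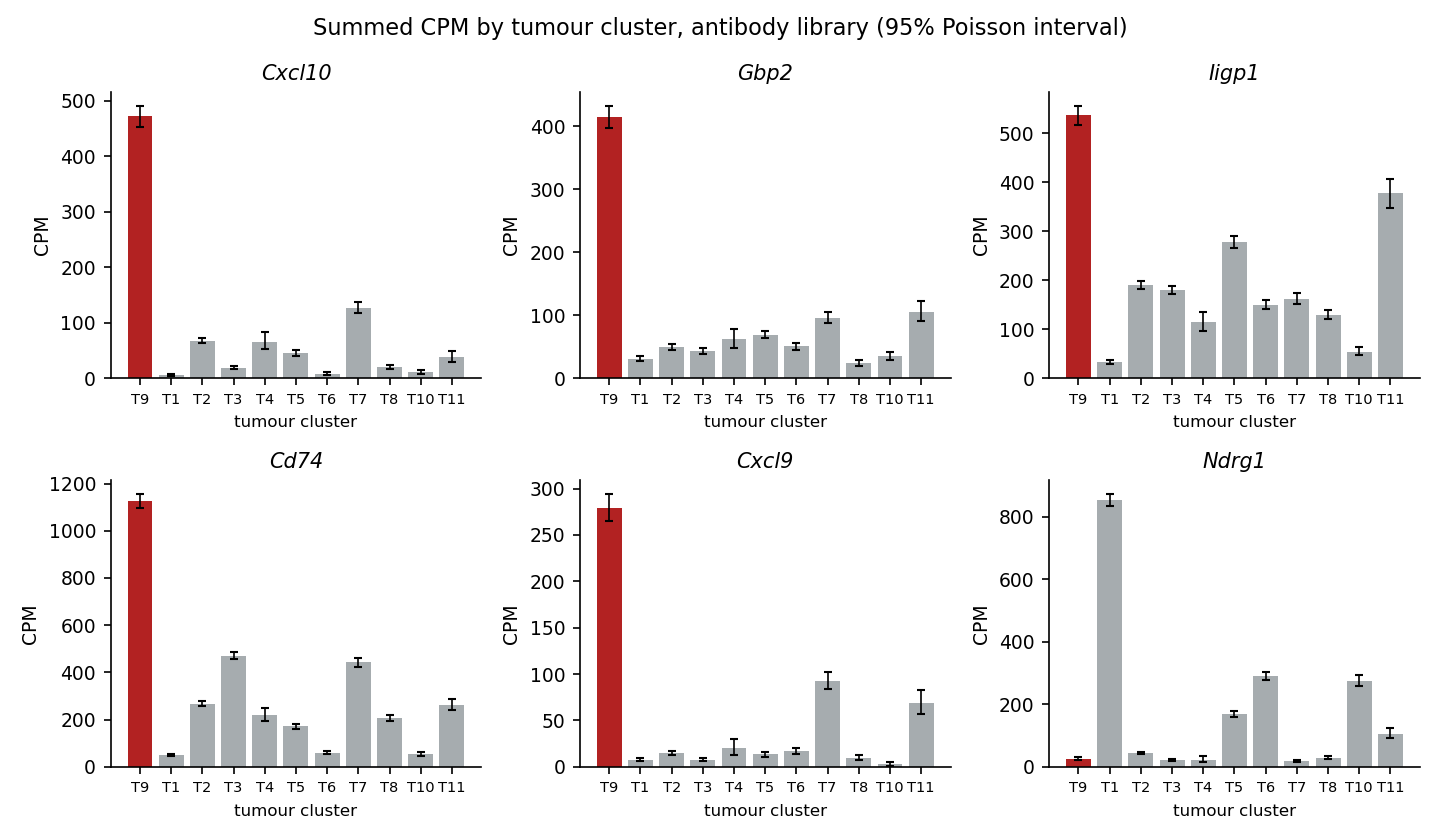
Summed level in CPM (vertical axis of each panel) of 6 genes in the 11 tumour clusters of the antibody library, with Tumor_9 in red at the left and the other clusters T1 to T11 in grey. Bars start at 0 and error bars are 95% Poisson intervals. Tumor_9 is the highest for Cxcl10, Gbp2, Iigp1, Cd74 and Cxcl9, and Ndrg1 is highest in Tumor_1 at 854 CPM.

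Against all 30 clusters of the library, immune and stromal cells included, the order differed by gene. Iigp1 was higher in Tumor_9 than in every other cluster, and the highest cluster outside the tumour cells, Fibroblast&Endothelial_2, held 291 CPM. Cxcl10 ranked 2 of 30, below the myeloid cluster MDSC_3 at 2542 CPM. Gbp2 ranked 4 of 30, again with MDSC_3 highest at 3122 CPM.

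Promoter windows of 3 genes that were higher in Tumor_9 and hold the motif searched are shown, because interferon-regulated factors bind near transcription starts. The interferon-stimulated response element (ISRE) was searched by its core GAAANNGAAA on both strands, in windows of 250 bases before to 50 bases after the annotated start (RefSeq, build GRCm38.p6). Capitals mark the core, and each sequence reads 5' to 3' on the strand of its gene. The windows are chr5:92348840-92349139 on the minus strand for Cxcl10, chr3:142620413-142620712 on the plus strand for Gbp2 and chr3:142530086-142530385 on the plus strand for Gbp7.
Cxcl10: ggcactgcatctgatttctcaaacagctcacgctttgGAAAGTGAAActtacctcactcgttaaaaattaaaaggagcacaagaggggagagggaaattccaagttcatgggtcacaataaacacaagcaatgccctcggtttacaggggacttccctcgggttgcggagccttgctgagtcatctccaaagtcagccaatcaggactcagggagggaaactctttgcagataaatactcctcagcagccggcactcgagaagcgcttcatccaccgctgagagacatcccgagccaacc
Gbp2: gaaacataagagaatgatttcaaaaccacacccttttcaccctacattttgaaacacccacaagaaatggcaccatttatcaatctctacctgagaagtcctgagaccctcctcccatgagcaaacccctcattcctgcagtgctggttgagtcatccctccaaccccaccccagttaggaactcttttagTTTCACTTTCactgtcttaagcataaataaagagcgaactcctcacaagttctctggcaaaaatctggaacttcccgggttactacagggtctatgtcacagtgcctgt
Gbp7: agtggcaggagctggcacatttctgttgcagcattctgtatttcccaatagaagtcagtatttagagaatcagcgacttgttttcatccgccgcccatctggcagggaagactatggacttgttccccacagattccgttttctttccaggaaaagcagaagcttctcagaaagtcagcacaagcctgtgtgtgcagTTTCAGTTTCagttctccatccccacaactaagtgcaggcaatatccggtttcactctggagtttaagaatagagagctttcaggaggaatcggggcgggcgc
The core begins at -213 from the annotated start in Cxcl10, at -59 in Gbp2 and at -53 in Gbp7, in the last 2 on the opposite strand. Of the 15 genes with the clearest excess, listed below, 9 had a window and 4 of those held the core, namely these 3 and Socs1, while Cxcl9 and Ubd did not. Of the interferon-induced GTPases with a window, 9 of 10 held the core (90.0%), against 1079 of the 27025 genes of the promoter reference (3.99%). Of genes with at least 50 UMIs in the tumour cells, 331 of 8912 with a window held it (3.71%). Windows of different GTPase genes overlapped in 0 pairs, but many of these genes are related copies, so their windows are not separate observations. Class I presentation genes held the core in 5 of 20 windows. The core of the gamma-activated site, TTCNNNGAA, which reads the same on both strands, was in 6 of the 10 GTPases and in 9.55% of all 27025. Of the 8912 genes, 8.26% held this core. It was in 1 of the 9 genes with the clearest excess that had a window (11.1%) and in 2 of 20 class I genes (10.0%). MHC class II genes held the ISRE core in 1 of 6 windows and the gamma-activated core in 0 of 6. Among hypoxia genes, described below as lower, 1 of 16 windows held the ISRE core. A match describes these letters and does not show binding.

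Across the transcriptome, 11367 genes had at least 50 UMIs in the tumour cells of the antibody library. A ratio of 2 or more of Tumor_9 over the other tumour clusters, after 0.5 UMI was added to each side, was found for 289 genes (2.54%) in the higher direction. In the lower direction it was found for 313 genes (2.75%), so 602 genes (5.30%) differed either way. The counting interval of the ratio lay above 1 for 274 of the 289 and below 1 for 240 of the 313. The median gene had a log2 ratio of 0.10.

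**Figure D2:**
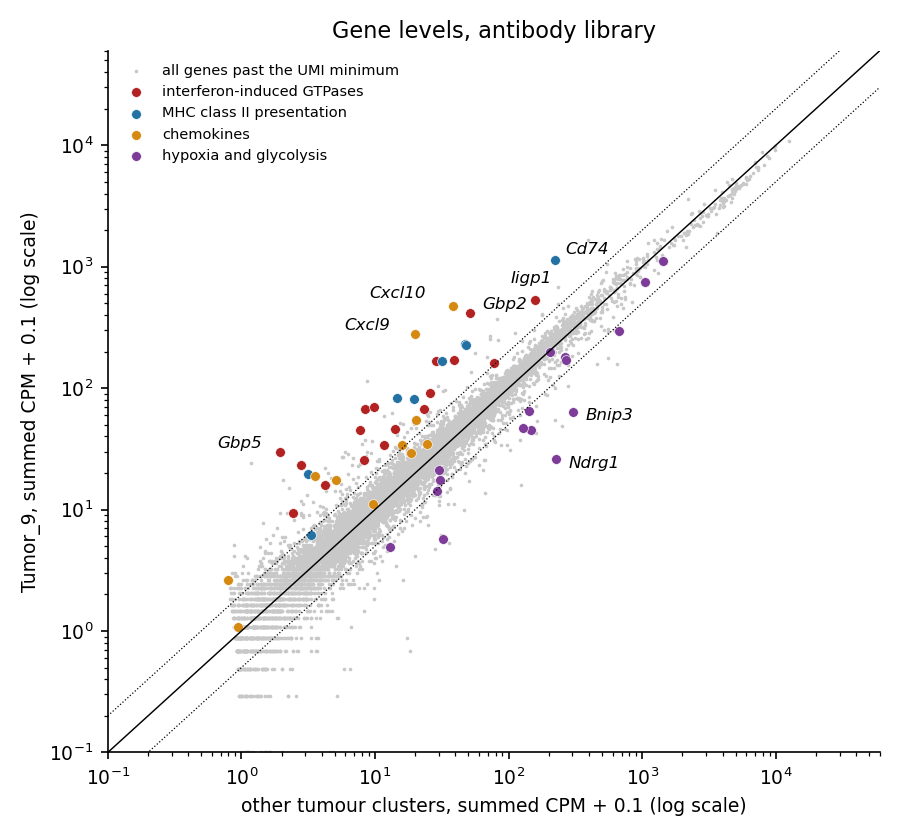
Level of each of the 11367 genes in Tumor_9 (vertical) against the pooled other tumour clusters (horizontal), in CPM with 0.1 added on log axes, antibody library. The solid line marks equal levels and the dotted lines a ratio of 2 in either direction. All 17 GTPases, 7 of 8 class II genes and the chemokines Cxcl9 and Cxcl10 lie above the upper dotted line, and Ndrg1 and Bnip3 lie below the lower one.

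Genes were ranked only with at least 50 CPM in Tumor_9 or the others, which left out Gbp5 at 29.7 CPM in Tumor_9. The 15 genes with the clearest excess, ranked by the lower bound of the ratio, were Cxcl9, Ubd, Cxcl10, Gbp2, Gbp4, Gbp6, Gbp7, H2-DMa, Cd74, H2-Aa, H2-Ab1, Socs1, H2-Eb1, Ly6a and Parp14. All 15 were higher in Tumor_9 than in each of the other 10 tumour clusters. Cxcl9, a second CXCR3 chemokine, led with 279 CPM in Tumor_9 and 19.9 CPM in the other tumour clusters, a ratio of 14.1 (13.0 to 15.2). Ubd, a ubiquitin-like protein that marks others for the proteasome, stood at 115 CPM in Tumor_9 and 8.59 CPM in the others, a ratio of 13.3. Cxcl10 followed with a ratio of 12.4 (11.7 to 13.1). Ly6a, the surface antigen Sca-1, stood at 373 CPM in Tumor_9 and 82.0 CPM in the others, a ratio of 4.55.

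Among the interferon-induced GTPases, all 17 past the minimum, of 21 listed, were higher by 2-fold or more, and all 17 were highest in Tumor_9 of the 11 tumour clusters. Their median log2 ratio was 2.00. Gbp5, which assists inflammasome assembly, had the largest ratio of the list at 16.1 (12.5 to 20.8), from 29.7 CPM in Tumor_9 and 1.85 CPM in the others. Gbp4 and Gbp6 had ratios of 8.04 and 7.12, and Gbp7 had one of 5.89 with 168 CPM in Tumor_9 and 28.5 CPM in the others. The immunity-related GTPases, which attack the vacuoles of intracellular parasites in mice, differed less than these Gbp genes. Igtp had a ratio of 4.39, Ifi47 of 3.52, Iigp1 of 3.40 (3.26 to 3.55), Irgm2 of 2.90 and Irgm1 of 2.88. The ranges overlapped, since Gbp8 and Gbp9 had ratios of 3.96 and 3.83, below that of Igtp. Tgtp1 and Tgtp2, and several of the Gbp genes, are near-identical copies, and how reads between copies were assigned is not given in the sources used here, so values of single members are uncertain. Gbp10 also ranked 1 among all 30 clusters with 23.3 CPM in Tumor_9, and Gbp6 did so with 69.2 CPM (62.2 to 76.7), within counting error of the 68.2 CPM in Fibroblast&Endothelial_2.

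Chemokines were higher in 7 of 11 members past the minimum, with a median log2 ratio of 1.42. Besides Cxcl9 and Cxcl10, these were Ccl5, Ccl2, Cx3cl1, Cxcl16 and Cxcl2. Ccl2 rested on 13 UMIs in Tumor_9 (2.53 CPM), with a ratio of 3.62 (1.78 to 6.91). Cxcl16, the ligand of CXCR6 on T cells, stood at 54.2 CPM in Tumor_9 and 20.2 CPM in the others. Ccl5, which attracts T cells and monocytes, stood at 18.8 CPM in Tumor_9 and 3.43 CPM in the others. Cxcl1 and Cxcl5, which attract neutrophils, had ratios of 1.58 and 1.42, short of 2. Cxcl9 was higher still in stromal and macrophage clusters, up to 2512 CPM in Fibroblast&Endothelial_2. Ccl5 reached 8865 CPM in CD3_T, Cxcl2 29022 CPM in MDSC_4, Cxcl16 685 CPM in Macrophage_1 and Ccl2 653 CPM in Fibroblast&Endothelial_1. Cx3cl1 went the other way, with 17.3 CPM (13.9 to 21.3) in Tumor_9 and at most 15.5 CPM outside the tumour clusters.

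The genes of MHC class II presentation were higher in 7 of 8 members past the minimum, with a median log2 ratio of 2.32. Ciita, the factor that switches class II genes on, stood at 19.6 CPM in Tumor_9 and 3.03 CPM in the others, a ratio of 6.47 (5.01 to 8.31). Cd74, the invariant chain that chaperones class II, stood at 1126 CPM in Tumor_9 and 223 CPM in the others, a ratio of 5.05. The chains H2-Aa, H2-Ab1 and H2-Eb1 had ratios of 5.29, 4.95 and 4.73, and the peptide exchanger H2-DMa had one of 5.67. Ctss, the protease that trims the invariant chain, stood at 6.02 CPM in Tumor_9 and 3.22 CPM in the others, a ratio of 1.87. These levels were far under those of professional presenting cells, since Cd74 reached 11144 CPM in Macrophage_1.

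Class I presentation was higher in 9 of 22 members past the minimum, with a median log2 ratio of 0.94, and 18 of the 22 were highest in Tumor_9 of the tumour clusters. The immunoproteasome subunits Psmb8 and Psmb9 stood at 685 and 250 CPM in Tumor_9, and at 236 and 83.8 CPM in the others. Tap1, a subunit of the transporter that moves peptides into the endoplasmic reticulum, had a ratio of 3.45 (3.24 to 3.67). B2m, the light chain of class I, was at 910 CPM in Tumor_9 and 536 CPM in the others, a ratio of 1.70. H2-D1, a classical heavy chain, was at 1059 CPM in Tumor_9 and 543 CPM in the others. H2-K1, the other classical heavy chain, stood at 3.69 CPM (2.22 to 5.76) in Tumor_9 and 4.64 CPM in the others, a ratio of 0.796 (0.472 to 1.27). No tumour cluster held more than 10.6 CPM of H2-K1, whereas the cluster CD4_T held 2088 CPM. H2-Q6 and H2-Q7 were similarly low, with 0.194 and 0.583 CPM in Tumor_9. Heavy-chain genes are close copies of each other and differ between strains, so their single values carry the same doubt as those of the GTPases.

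Genes known mainly as type I interferon targets were higher in 14 of 21 members past the minimum, with a median log2 ratio of 1.28. The tetherin gene Bst2 stood at 410 CPM in Tumor_9 and 178 CPM in the others, a ratio of 2.30. Isg15, a ubiquitin-like modifier, stood at 51.7 CPM in Tumor_9 and 15.2 CPM in the others, a ratio of 3.39. Their levels stayed small next to MDSC_3, where Isg15 reached 6457 CPM. The largest ratios past the minimum were 4.55 for Oasl2, 4.42 for Ifi44 and 4.37 for Ifi204, and 20 of the 21 log2 ratios were above 0. The Ifit genes, among the best known type I targets, had few UMIs. Ifit1 had 2.91 CPM in Tumor_9 and 1.03 CPM in the others, a ratio of 2.83 (1.49 to 5.06). Ifit3, which did not pass the minimum, had 0.194 CPM in Tumor_9 and 0.244 CPM in the others. Rsad2, an antiviral enzyme, had 3.30 CPM in Tumor_9 and 2.77 CPM in the others, a ratio of 1.19 (0.677 to 1.97).

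Of the 17 genes of interferon receptors and signalling, 4 were higher and 1 was lower, with a median log2 ratio of 0.28. Ifngr1, which binds interferon gamma, was at 103 CPM in Tumor_9 and 97.4 CPM in the others, a ratio of 1.05 (0.963 to 1.15). Ifnar1 of the type I receptor was at 18.8 CPM in Tumor_9 and 17.8 CPM in the others, and the kinase gene Jak2 at 35.4 CPM in Tumor_9 and 34.5 CPM in the others. Ifnar2, the other type I receptor chain, was at 89.0 CPM in Tumor_9 and 62.3 CPM in the others, a ratio of 1.43 (1.29 to 1.57), and was highest in Tumor_9 of the tumour clusters. The lower gene was Ifnlr1, of the interferon lambda receptor, at 1.17 CPM in Tumor_9 and 3.02 CPM in the others, a ratio of 0.387 (0.140 to 0.859). Of the transcription factors described here, Irf1, an early activator of interferon genes, stood at 136 CPM in Tumor_9 and 52.5 CPM in the others, a ratio of 2.60 (2.39 to 2.82). Irf7, which amplifies the type I response, stood at 20.4 CPM in Tumor_9 and 9.20 CPM in the others, a ratio of 2.22 (1.78 to 2.74). Feedback genes were higher in 5 of 9, led by Socs1, which blocks Janus kinases, at 59.1 CPM in Tumor_9 and 11.6 CPM in the others. Of the ligand genes listed, Ifng, Ifnk and Il27 were in the table, with 1, 0 and 0 UMIs in Tumor_9, and none of them passed the minimum.

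Among ligands of T cell and natural killer cell receptors, 2 of 10 were higher. Cd274, which encodes PD-L1, stood at 15.5 CPM in Tumor_9 and 3.97 CPM in the others, a ratio of 3.91 (2.99 to 5.07), and reached 1293 CPM in MDSC_3. Ido1, an enzyme that degrades tryptophan, stood at 29.7 CPM in Tumor_9 and 8.68 CPM in the others, and no other cluster of the 30 exceeded Tumor_9. Nucleic acid sensors were higher in 3 of 8, with Zbp1 at 196 CPM in Tumor_9 and 56.1 CPM in the others. Cell death genes were higher in 6 of 20 and lower in 1, Pmaip1. The death receptor Fas stood at 28.7 CPM in Tumor_9 and 6.20 CPM in the others, and the inflammatory protease Casp1 at 27.6 CPM in Tumor_9 and 8.45 CPM in the others. Genes of the NF-kB response were higher in 3 of 16, namely Icam1, Vcam1 and Saa3, while Nfkbia had a ratio of 1.26. Complement and acute phase genes were higher in 1 of 15 and lower in 1.

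**Figure D3:**
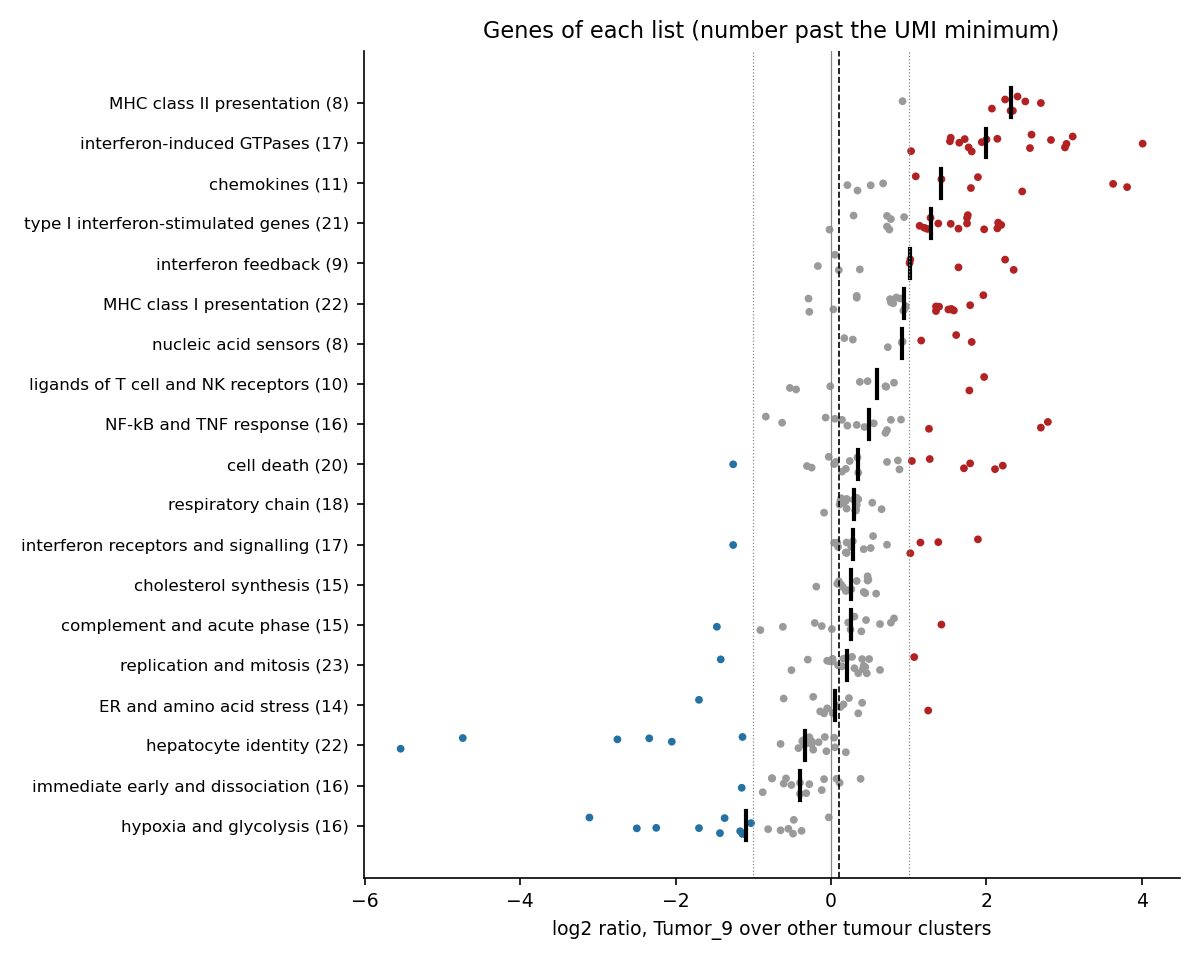
Log2 ratio of Tumor_9 over the other tumour clusters (horizontal) for each gene past the minimum, by gene list with the number of genes in brackets. Thick bars are list medians, the dashed line is the median of all genes at 0.10, and dotted lines mark a ratio of 2 in either direction, with red and blue points beyond them. All 17 GTPases lie beyond the right dotted line, and 9 of 16 hypoxia genes lie beyond the left one.

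Among the 15 genes with the clearest deficit were Ndrg1, Areg, Bnip3, Apoa1, Hmox1, Hilpda, Tff1, Cited2, Vegfa, Ddit3, Efna1, Igfbp3, Selenbp1 and Tiparp. Of the 15, 3 are members of the hypoxia list, namely Ndrg1, Vegfa, which drives vessel growth, and Bnip3, which acts in the removal of mitochondria. Ndrg1 stood at 25.8 CPM in Tumor_9 and 225 CPM in the others, a ratio of 0.115 (0.0962 to 0.136). Bnip3 stood at 63.7 CPM in Tumor_9 and 303 CPM in the others. The hypoxia and glycolysis list was lower in 9 of 16 members past the minimum, higher in 0, with a median log2 ratio of -1.09.

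These low values did not set Tumor_9 apart from every other cluster. None of the 15 genes was lowest in Tumor_9, and 13 were lower still in Tumor_3. The highest cluster was Tumor_1 for 11 of the 15, and all 15 were higher in Tumor_10 than in Tumor_9. Without Tumor_1 in the comparison, an alternative added after the data had been seen, the hypoxia median was -0.66 and Ddit3, a stress transcription factor, had a log2 ratio of -0.36, against -1.70 with it. Ndrg1 had a log2 ratio of -2.03 without Tumor_1 and -3.11 with it.

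Hepatocyte identity genes were lower in 6 of 22 members and higher in 0, with a median log2 ratio of -0.34. All 6, namely Apoa1, Apoa2, Serpina1a, Serpina1b, Ahsg and Fabp1, were highest in Tumor_11. Without Tumor_11 in the comparison, an alternative added after the data had been seen, 4 of 22 were lower, the median was -0.21, and Apoa2 and Ahsg had log2 ratios of -0.22 and -0.93. Albumin, the main plasma protein of the liver (Alb), stood at 3102 CPM in Tumor_9 and 4007 CPM in the others, a ratio of 0.774, and the fetal protein gene Afp at 3448 CPM in Tumor_9 and 4091 CPM in the others. Apoa1, of high-density lipoprotein, stood at 158 CPM in Tumor_9 and 653 CPM in the others, with 4534 CPM in Tumor_11. Foxa2, a liver transcription factor, had a ratio of 1.14 and Krt18, an epithelial keratin, one of 1.02. The levels of Alb and Afp ranked 7 and 8 of the 11 tumour clusters, inside the range of the others.

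Cell cycle genes showed little contrast. Of 23 replication and mitosis genes, 1 was higher, Ccnd1, and 1 was lower, Cdkn1a. Ccnd1, the cyclin of early G1, stood at 490 CPM in Tumor_9 and 234 CPM in the others, although Tumor_8 held 517 CPM. Cdkn1a, the cell cycle inhibitor p21, stood at 104 CPM in Tumor_9 and 278 CPM in the others, and at 749 CPM in Tumor_1. Mki67, a marker of cycling cells, stood at 117 CPM in Tumor_9 and 115 CPM in the others. The pooled value hid a wide range, from 5.37 CPM in Tumor_1 to 388 CPM in Tumor_2. The median of the other tumour clusters was 42.0 CPM for Mki67, below Tumor_9. It was 15.2 CPM for Cenpf and 7.31 CPM for Aurka, against 70.9 and 37.9 CPM in Tumor_9 and 303 and 119 CPM in Tumor_2. Mcm6 differed less, with 76.9 CPM in Tumor_9 and a median of 69.0 CPM. Respiratory chain and cholesterol synthesis genes had 0 of 18 and 0 of 15 members past 2-fold in either direction, with medians of 0.30 and 0.26.

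Compared with each tumour cluster in turn, Tumor_9 was closest to Tumor_8, Tumor_2 and Tumor_3. Genes that differed by 2-fold or more made up 4.09% of those past the minimum against Tumor_8, 4.42% against Tumor_2 and 4.75% against Tumor_3. The share was 27.5% against Tumor_1. The GTPases stayed higher by their median log2 ratio in all 10 pairs, between 1.45 against Tumor_11 and 3.75 against Tumor_1. The class II median was positive in all 10 pairs too, with the smallest value of 1.27 against Tumor_3, where Cd74 stood at 471 CPM. The hypoxia median was -2.14 against Tumor_1 and -1.75 against Tumor_10, but -0.01 against Tumor_7 and 0.23 against Tumor_3.

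The genes whose levels followed Cxcl10 most closely over the 11 tumour clusters, by Pearson correlation of log2 CPM, were Igtp (0.943), Plaat3 (0.935), Samhd1 (0.933), Apol10b (0.933) and Gbp4 (0.931). The points are clusters of 1 library, and Tumor_9 is the highest of them for Cxcl10, so the values describe these clusters only.

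Tumor_9 cells differed among themselves. Each cell's UMIs of a list were divided by its depth and multiplied by 10000. For the GTPases the median cell of Tumor_9 had 16.5 (quartiles 9.76 and 26.5) and the median cell of the other tumour clusters had 2.63 (0.821 and 6.36). A cell without any GTPase UMI was found 0 times among the 248. Of the other tumour cells, 170 of 2965 (5.73%) reached the Tumor_9 median. For class II the median was 15.7 (5.59 and 28.4) in Tumor_9 and 0.914 in the others, where 231 cells (7.79%) reached the Tumor_9 median. Those cells made up 21.6% of Tumor_3 and 18.3% of Tumor_7, against 0.652% of Tumor_1.

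**Figure D4:**
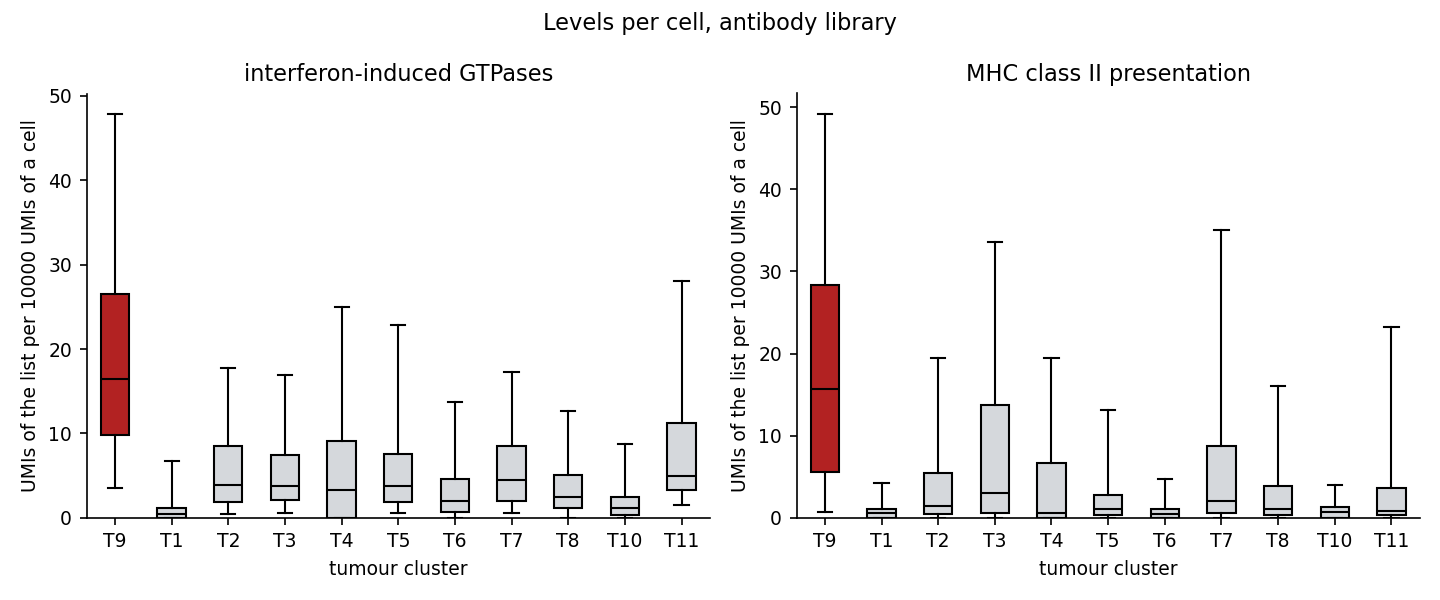
UMIs of the GTPase list (left panel) and of the class II list (right panel) per 10000 UMIs of a cell, by tumour cluster, with Tumor_9 in red at the left. Boxes span the quartiles with the median as a line, and whiskers run from the 5th to the 95th percentile of cells. The Tumor_9 box is the highest in both panels, and the upper whiskers of Tumor_3 and Tumor_7 reach 33.6 and 35.0 for class II.

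A few cells carried much of the chemokine RNA. Tumor_9 held 7.72% of the tumour cells and 8.23% of the tumour UMIs, and it held 55.8% of all tumour Cxcl9 UMIs, 52.6% of Cxcl10, 42.2% of Gbp2 and 31.2% of Cd74. Within it, the 10 highest cells held 47.2% of the Cxcl9 UMIs and 31.5% of the Cxcl10 UMIs. For Psmb8 the 10 highest cells held 11.3%. At least 1 Cxcl9 UMI was found in 113 of 248 cells (45.6%), against 245 of 248 (98.8%) for Psmb8.

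Among single cells of Tumor_9, class II genes were compared with one another and with the GTPases. Over the 248 cells, Spearman's rho was 0.80 between Cd74 and H2-Aa and 0.79 between Cd74 and H2-Ab1. It was 0.52 between Gbp2 and Gbp7, 0.52 between Gbp7 and Iigp1, and 0.54 between Ubd and Ly6a. Between the summed GTPases and the summed class II genes it was -0.09 in Tumor_9, against 0.31 over the 2965 other tumour cells, and the cluster was drawn on these values. By the medians of both sums, 57 cells were high in both, 67 in the GTPases only, 67 in class II only and 57 in neither. Class I, summed over its list, had a rho of 0.48 with class II and 0.27 with the GTPases. These cells share 1 library, and the GTPase sum had a rho of -0.04 with depth.

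To compare detection at equal depth, each cell was thinned to 5000 UMIs, which left out 3 of 248 Tumor_9 cells and 271 of 2965 other tumour cells. CD8_T_1, T cells that should lack class II, served as a background for the class II genes. Of its cells 125 were kept and 83 left out, with a median depth of 5474 UMIs. For Cxcl10 and Iigp1 the CD8_T_1 shares are given for comparison and not as a background. Cd74 was detected in 83.2% of Tumor_9 cells (unthinned 93.5%), in 34.3% of other tumour cells (54.1%) and in 44.0% of CD8_T_1 cells (43.8%). H2-Aa was detected in 42.0% of Tumor_9 cells, 11.4% of other tumour cells and 17.7% of CD8_T_1 cells. Unthinned, H2-Aa was detected in 66.9%, 25.8% and 18.3% of these cells in the same order. Cxcl10 was detected in 47.7% of Tumor_9 cells (unthinned 65.3%), 7.77% of other tumour cells (15.6%) and 7.71% of CD8_T_1 cells (9.62%). Iigp1 was detected in 76.3% of Tumor_9 cells (92.3%), 35.9% of other tumour cells (58.8%) and 4.86% of CD8_T_1 cells (7.21%). Thinning takes more UMIs from the deeper tumour cells than from CD8_T_1, and how much of the signal in the other tumour cells was free RNA was not tested.

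Because immune cells express many of these genes, markers of other cell types were summed in Tumor_9. The 7 pan-leukocyte genes came to 23.5 CPM in Tumor_9 and 23.3 CPM in the other tumour clusters, which ranged from 17.6 to 36.2 CPM. The 10 T cell genes came to 5.05 CPM in Tumor_9 and 5.47 CPM in the others (4.07 to 16.8), with Cd4 at 0. Macrophage genes without Apoe, which hepatoma cells express, came to 12.2 CPM in Tumor_9 and 19.6 CPM in the others (11.8 to 36.1), with Adgre1 and Ms4a7 at 0. Natural killer cell genes came to 1.36 CPM in Tumor_9 and 1.97 CPM in the others (0.581 to 12.0), with Ncr1, Klrb1c, Eomes and Klra8 at 0. The B cell genes came to 0.583 CPM in Tumor_9 and 1.12 CPM in the others. None of these sums set Tumor_9 apart from the other tumour clusters. Monocyte and dendritic cell genes came to 265 CPM in Tumor_9 and 235 CPM in the others (191 to 290), with 5 of 10 at 0, among them Flt3 and Xcr1. Plac8 alone made up 263 CPM of that sum in Tumor_9 and was between 187 and 289 CPM in every other tumour cluster, and the other 9 genes came to 1.94 CPM in Tumor_9 and 1.55 CPM in the others (0.883 to 3.59). Neutrophil genes came to 18.1 CPM in Tumor_9 and 17.0 CPM in the others, and red cell and platelet genes to 6.22 CPM in Tumor_9 and 9.76 CPM in the others. Fibroblast and endothelial genes came to 54.8 CPM in Tumor_9 and 36.8 CPM in the others (23.5 to 78.7), with Cdh5 and Kdr at 0. Dcn alone made up 40.4 CPM of that sum in Tumor_9 and 22.3 CPM of it in the others, and it reached 64.9 CPM in Tumor_8. The part of these genes in the results was not tested. At least 2 pan-leukocyte UMIs were held by 18 of 248 Tumor_9 cells (7.26%) and 262 of 2965 other tumour cells (8.84%). Without those cells the log2 ratio of Cxcl9 was 4.04, against 3.81 with them.

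The treatment comparison asked whether the cluster differed between antibody and IgG. Tumor_9 made up 248 of 3213 tumour cells (7.72%, Clopper-Pearson interval 6.82 to 8.70) in the antibody library and 247 of 4364 (5.66%, 4.99 to 6.39) in the IgG library. The ratio of the shares was 1.36 (1.14 to 1.63). Tumor_6 had a similar ratio of 1.35, and Tumor_4, whose median antibody cell had 2483 UMIs, had one of 0.657. As a share of all cells, Tumor_9 was 4.52% in the antibody library and 4.28% in the IgG library, a ratio of 1.06 (0.882 to 1.26), with the mixing of sorted cells in the denominator. Differences between libraries and differences between treatments cannot be told apart here.

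Expression in Tumor_9 was compared between treatments for the genes that could be read in both libraries, none of them an interferon gene of the lists. These genes are the first rows of the deposited values, a run from Xkr4 to Tmem131, and are not a sample of the transcriptome. Mcm3 and Cox5b among them both lie on chromosome 1. Shares and medians below describe this run of genes only. Of 105 such genes, 52 had at least 50 UMIs in Tumor_9 over both libraries. A ratio of 1.2 or more of antibody over IgG was found for 8 of 52 in the higher direction (15.4%) and for 7 in the lower direction (13.5%). The counting interval lay above 1 for 6 genes and below 1 for 6, and the median log2 ratio was -0.00.

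Higher in the antibody library with an interval above 1 were Dst, Ly96, Uggt1, Rb1cc1, Vcpip1 and Cox5b. Dst, a cytoskeletal linker, stood at 212 CPM in antibody Tumor_9 cells and 174 CPM in IgG Tumor_9 cells, a ratio of 1.21 (1.11 to 1.33). The other tumour cells had nearly the same ratio, 1.19. Ly96, the partner of the endotoxin receptor TLR4, stood at 25.3 CPM with antibody and 17.5 CPM with IgG, a ratio of 1.44 (1.09 to 1.92). Its ratio in the other tumour cells was 1.07 (0.998 to 1.16). Uggt1, which checks the folding of glycoproteins, had a ratio of 1.25 (1.07 to 1.47) in Tumor_9 and 1.31 in the others.

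Lower in the antibody library were Gsta3, Sdhaf4, Mrpl15, Ptpn18 and Terf1, and the ribosomal protein gene Rpl7 with a ratio of 0.932. Gsta3, a glutathione transferase, stood at 201 CPM in antibody Tumor_9 cells and 272 CPM in IgG Tumor_9 cells, a ratio of 0.739 (0.680 to 0.802), and the other tumour cells had a ratio of 0.830. Sdhaf4, an assembly factor of succinate dehydrogenase, stood at 31.1 CPM with antibody and 42.3 CPM with IgG, a ratio of 0.735 (0.594 to 0.909), and the other tumour cells had a ratio of 0.976 (0.917 to 1.04). These ratios have no replicate and no treatment effect can be read from them.

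The same genes gave the contrast of Tumor_9 with the other tumour clusters a second time, in the IgG library. Neurl3, an E3 ubiquitin ligase gene, had a ratio of Tumor_9 over the other tumour clusters of 2.25 (1.88 to 2.67) in the antibody library and 2.30 (1.92 to 2.73) in the IgG library. Ptpn18, a protein tyrosine phosphatase, had ratios of 1.68 in the antibody library and 1.97 in the IgG library, and the membrane protein gene Xkr9 had 1.90 in the antibody library and 2.82 in the IgG library. Snhg6, a host gene of small nucleolar RNA, was lower in Tumor_9, with 0.448 in the antibody library and 0.342 in the IgG library. Among 69 genes with enough UMIs in the tumour cells of both libraries, 28 had an antibody interval that excluded 1. All 28 had an IgG ratio on the same side of 1, and for 24 the IgG interval excluded 1 as well. The cluster names were given to cells of both libraries from their expression, so this is a description and not independent support.

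**Figure D5:**
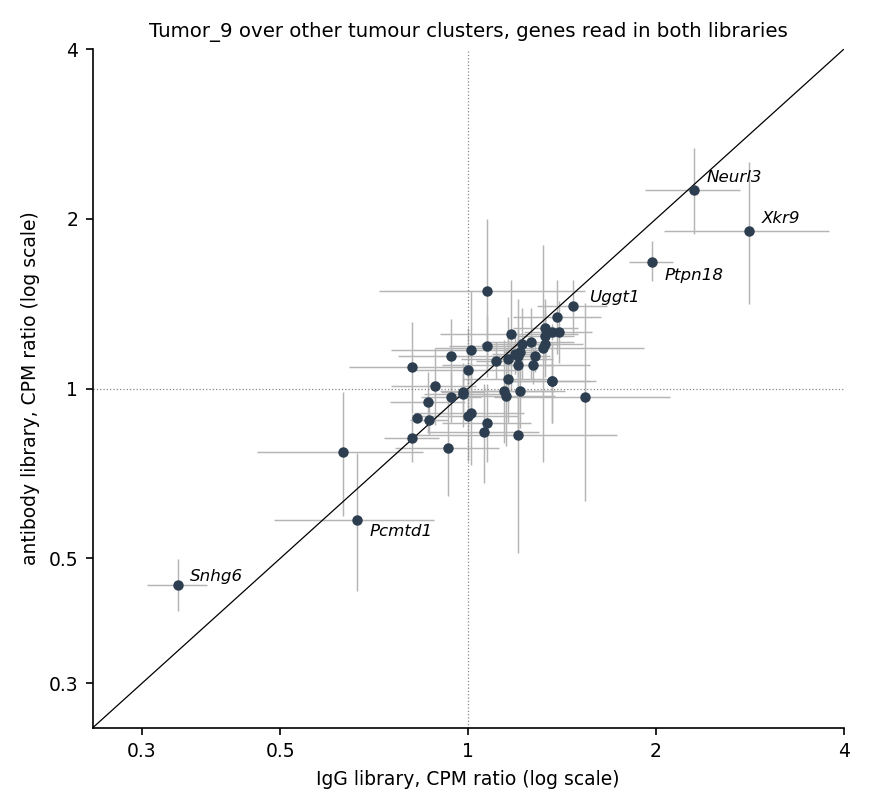
Ratio of CPM in Tumor_9 over the other tumour clusters in the antibody library (vertical) and in the IgG library (horizontal), both on log axes, for the 52 genes with enough UMIs in Tumor_9. Grey bars are 95% intervals of counting error and the diagonal marks equal ratios. Neurl3, Xkr9 and Ptpn18 lie at the upper right and Snhg6 at the lower left.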

How the data were processed

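The submitters' processing notes name Cell Ranger 2.1.1 for the 2 droplet libraries, 1 antibody and 1 IgG. How the authors filtered and clustered cells, and on which build, is not given in the sources used here. The authors deposited a cluster name for each cell and expression values on a natural log scale: each UMI count was divided by its cell's total and multiplied by 10000, and 1 was added before the log, as checked on the values. Whole UMIs were recovered for all 5482 antibody cells, and the largest distance of a value from a whole number was 1.3e-11. The IgG table as used here held 105 complete genes, from which a depth was recovered for 5739 of 5765 IgG cells, including all 247 of Tumor_9.

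UMIs were summed per cluster and scaled to CPM. Ratios had exact conditional 95% intervals and shares exact Clopper-Pearson intervals. Genes had at least 50 UMIs. Named genes were 15 per direction with the interval bound farthest from 1, at least 50 CPM on 1 side and no ribosomal, mitochondrial or unnamed genes, and up to 6 per direction between libraries, besides members of the gene lists. The members, gene lists and rules were chosen with earlier results of these data known. Promoters came from RefSeq tables of build GRCm38.p6, matched by symbol. Steps were tested on simulated data. Doublets were predicted with scrublet in scanpy 1.11.5, which marked 3 of 5482 cells (0.0547%) and none of the tumour cells, so it has not worked and no cell was removed. Python 3.11.15, numpy 2.4.6, pandas 2.3.3, scipy 1.17.1 and matplotlib 3.10.9 were used. Alternatives were other UMI minimums, depths, weights, scalings and sets of clusters. Values of some genes are not reported here.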

Additional observations from a re-analysis of the deposited data

Results flagged for a closer look

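Snhg6 had an antibody over IgG ratio of 1.06 (0.908 to 1.23) in Tumor_9 and 0.805 (0.784 to 0.826) in the other tumour clusters, on opposite sides of 1 with intervals that do not meet. Ptpn18 had ratios of 0.874 (0.784 to 0.974) in Tumor_9 and 1.02 (0.980 to 1.06) in the other tumour clusters, placed in the same way. The difference between the 2 groups of cells was not tested for either gene, since each ratio rests on 1 library per treatment.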

How the results depend on the processing

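None of the 31 genes followed under the alternatives changed the sign of its log2 ratio, and this count does not cover the other called genes. A list median near 0 could change sign, since that of ER and amino acid stress was 0.05 and setting the median ratio to 1 took 0.10 from every gene. The ratio of Tumor_9 shares, 1.36 among tumour cells, was 1.06 with all cells as the denominator. With a minimum of 10 UMIs per gene, 753 genes were higher and 769 lower, and with a minimum of 200 UMIs the counts were 157 and 171, against 289 and 313. The class II median of 2.32 was 2.24 as a mean over cells, 2.22 with the median ratio of all genes set to 1 and 2.12 without Tumor_1, and the hypoxia median of -1.09 was -0.66 without Tumor_1. Setting the median ratio to 1 shifted all log2 ratios by 0.10 and gave 241 higher and 373 lower genes. With no count added to the ratio, an alternative chosen after seeing the data, 272 genes were higher and 371 lower. Without Tumor_1, 235 genes were higher and 228 lower, so that the higher ones were 50.8% of those called, against 48.0% with it, and without Tumor_11 the counts were 298 and 285 (51.1%). The chemokine median of 1.42 was 1.61 without Tumor_11. Of 341 values of named genes, 57 moved beyond their counting interval, and of 44 values of genes compared between libraries none did. The alternative without predicted doublets was not run, because no tumour cell was predicted. No paired analysis was possible because each group has 1 library. Depth limits genes near the minimum, where a ratio of 2 can lie within counting error.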

Other observations

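Outside the fixed lists, 17 genes with at least 50 CPM in Tumor_9 were higher by 2-fold or more; they were singled out after their values were seen. In all, 51 of 2456 genes at that level were higher by 2-fold (2.08%), so 34 of the 51 were members of the lists. AW112010, an interferon-responsive transcript of immune cells, stood at 1653 CPM in Tumor_9 and 392 CPM in the other tumour clusters, a ratio of 4.22 (4.11 to 4.32), with 692 CPM in Tumor_11, the next cluster. Wars, the tryptophan tRNA synthetase, stood at 104 CPM in Tumor_9 and 29.5 CPM in the others, a ratio of 3.53. Samhd1, which degrades nucleotides needed by viruses, stood at 97.1 CPM in Tumor_9 and 33.2 CPM in the others, and Rnf213, a large ubiquitin ligase, at 53.0 CPM in Tumor_9 and 19.8 CPM in the others.

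For other genes of this group Tumor_9 was not the highest tumour cluster. Ltb, which encodes lymphotoxin beta, stood at 401 CPM in Tumor_9 and 177 CPM in the others, with 435 CPM in Tumor_11 and 320 CPM in Tumor_5. Ube2l6, the conjugating enzyme for ISG15, stood at 62.2 CPM in Tumor_9 and 69.5 CPM in Tumor_11. Serpina10, a protease inhibitor of coagulation, stood at 63.5 CPM in Tumor_9 and 89.8 CPM in Tumor_11.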
